A study of Mus musculus with 8 samples.

Results

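Both strands of the mouse miR-31 hairpin, mmu-miR-31 and its star strand mmu-miR-31*, were followed in livers of mice given CCL4, a solvent that injures hepatocytes and leads to scarring of the liver. They are 2 of the 567 mouse miRNAs on the array and were found by name. They were selected on their higher signal with CCL4 in each week and on the common movement of both strands in these arrays, so their difference between treatments and the likeness of the strands are given as a description, with no test. Values of 8 single-colour Agilent arrays were used. CCL4 in olive oil accounted for 5 of them (a single one of 4 weeks and pairs of 6 and 8 weeks) and olive oil alone for 3 (1 array at each of these weeks), all from liver of adult male C57BL/6J mice, 8 weeks old by the methods, which were injected into the peritoneum. By the paper, injections were given 2 times a week for the first 4 weeks and 1 time a week after that. The arrays of 6 and 8 weeks therefore follow a change of dosing rate that the arrays of 4 weeks do not. No other allele or agent was named in the labels. The labels call the CCL4 livers fibrosis and the olive oil livers control, and nothing in the labels or methods tells pooled RNA from that of a single mouse. Therefore n is the number of arrays, and p-values measure only the spread between arrays, which may be technical.

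A miRNA gene is transcribed as a longer RNA that folds into a hairpin. Drosha and Dicer cut a short duplex out of it, and 1 strand, the guide, is loaded into an Argonaute protein, where its seed pairs with target mRNAs. The other strand, marked with a star in the older naming, is mostly degraded. miR-31 has been studied above all in cancer, where it was tied to metastasis of breast tumours, and its gene lies beside the tumour suppressor genes Cdkn2a and Cdkn2b. Liver tissue holds hepatocytes, bile duct cells, endothelium, leukocytes and the stellate cells that make scar collagen, and the arrays read all of them together. In such a mixture more cells of a type and more miRNA per cell cannot be told apart.

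The hairpin is shown first because both measured strands come from it. The sequences are RefSeq's for the build GRCm38.p6, in which the gene lies on the minus strand of chromosome 4. The mature strand mmu-miR-31 (mmu-miR-31-5p in current naming) is the first run of capitals in the hairpin and mmu-miR-31* (mmu-miR-31-3p) the second.
hairpin: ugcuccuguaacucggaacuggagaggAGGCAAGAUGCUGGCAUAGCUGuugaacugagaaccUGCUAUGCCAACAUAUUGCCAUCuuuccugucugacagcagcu
In the fold of lowest predicted free energy, -48.7 kcal per mol, 17 of the 22 bases of the guide were paired with the star strand, and 14 bases lay between the strands. The capitals in the mature sequences mark the seed, bases 2 to 8.
mmu-miR-31: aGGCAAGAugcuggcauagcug
mmu-miR-31*: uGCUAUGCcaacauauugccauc
Among the 1674 mature mouse sequences compared, 0 others carried either seed, so each strand was the single member of its seed family in that table.

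Each strand was read by a pair of probes with 10 spots apiece, and the probes differ in how far they reach along the miRNA. The bases that each probe covers by its position on mm9, the build of the scanner files, are in capitals below, because they decide how much of a strand each spot can bind.
mmu-miR-31, longer probe: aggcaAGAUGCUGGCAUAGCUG
mmu-miR-31, shorter probe: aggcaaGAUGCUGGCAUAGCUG
mmu-miR-31*, longer probe: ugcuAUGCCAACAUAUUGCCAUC
mmu-miR-31*, shorter probe: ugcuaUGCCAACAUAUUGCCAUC
The longer probe of mmu-miR-31 covered 17 bases (mm9 chromosome 4, 88556518 to 88556534) and the shorter 16. Those of mmu-miR-31* covered 19 (88556481 to 88556499) and 18. Probe positions of the strands did not overlap, and every probe began at the 3′ end of its strand. In the RefSeq annotation the gene Mir31 lay within the long noncoding RNA gene Gm49890, with the interferon genes Ifna4, Ifna1 and Ifne on one side and Mtap, Cdkn2a and Cdkn2b on the other.

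The guide strand was detected on all 8 arrays and was brighter on every CCL4 array than on any olive oil array. Its signal, a background-subtracted intensity summed over both probes, was 114 with CCL4 at 4 weeks, 53.6 and 74.5 in the pair of 6 weeks and 113 and 97.0 in the pair of 8 weeks. The olive oil signals, in order of week, were 33.5, 27.2 and 32.9. Before scaling, 14.3% of the 133 miRNAs detected on at least 3 arrays separated the groups in this way, and since these values chose the strands nothing is read from it. The error that the scanner software gives to a signal ran from 3.56 to 9.23 for this strand, so the 3 olive oil arrays differed by little more than their errors, and the CCL4 arrays of 6 weeks stood below the other CCL4 arrays.

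The star strand was dim, and its signal had the same order over the arrays. With CCL4 it read 28.9 at 4 weeks, then 14.6 and 20.4 in the pair of 6 weeks and 26.9 and 23.3 in that of 8 weeks, with errors of 3.08 to 4.66. With olive oil, from the earliest week to the latest, it read 8.57, 6.20 and 8.55, with errors of 2.94 to 3.53. It was called detected on 5 of 5 CCL4 arrays and on 0 of 3 olive oil arrays. The software's call followed a simple rule, a miRNA being detected when at least 1 of its probes exceeded 3 times its own error, which held in 4536 of 4536 values of the 8 arrays. The ratio of the summed signal to its error was 4.73 to 8.43 with CCL4 and 2.11 to 2.77 with olive oil. The call is made per probe and not on the summed signal. The olive oil values lie under it and are not taken as levels.

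**Figure D1:**
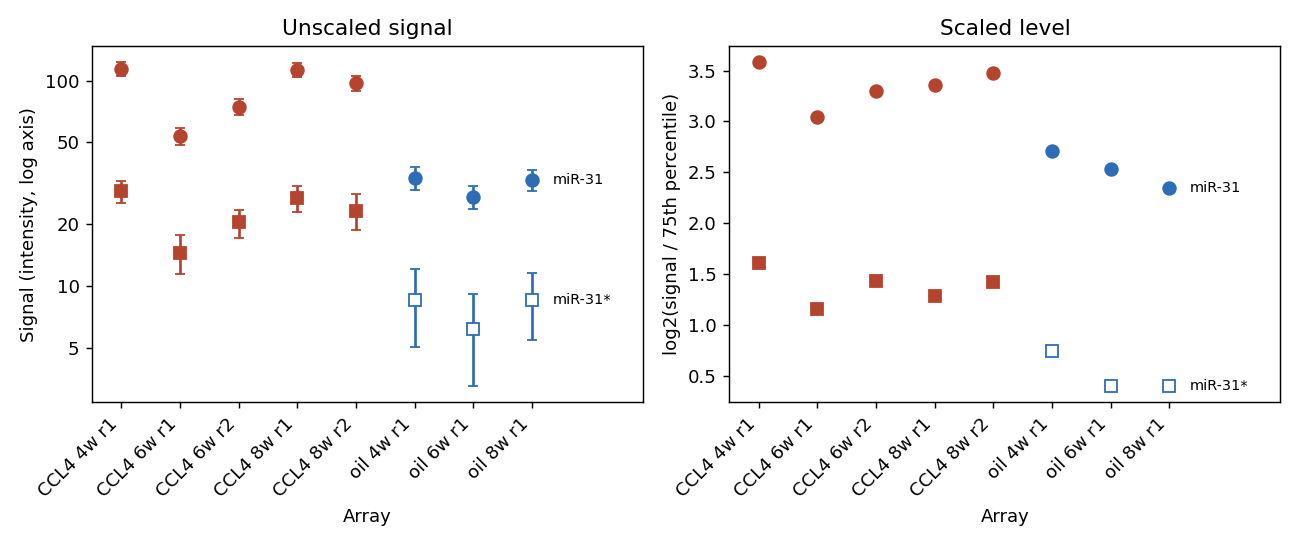
Signal of mmu-miR-31 (circles) and mmu-miR-31* (squares) on each of the 8 arrays, unscaled on a log axis with the scanner software's error as bars (left) and as log2 of the signal over the 75th percentile of the array (right); red marks CCL4, blue olive oil (oil), 4w to 8w the weeks, r1 and r2 the replicates, and open symbols values called not detected. On both scales every CCL4 value of a strand lies above its olive oil values, and the star strand is open on all 3 olive oil arrays.

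To compare arrays, the log2 of each signal over its array's 75th percentile was taken, which is called the scaled level here. In mmu-miR-31 it was 3.58 with CCL4 at 4 weeks, 3.04 and 3.30 in the pair of 6 weeks and 3.36 and 3.48 in the pair of 8 weeks. The olive oil values were 2.71, 2.53 and 2.34, in order of week. The lowest CCL4 array was 0.33 above the highest olive oil array on this log2 scale. Group means were 3.35 ± 0.21 (SD, n = 5) and 2.53 ± 0.18 (SD, n = 3), and the fit with week as a factor gave a log2 difference of 0.86 ± 0.155 (SE), a 1.82-fold higher level. The gap between the paired CCL4 arrays was 0.26 (log2) at 6 weeks and 0.12 at 8 weeks, and the weekly differences of 0.87, 0.64 and 1.07 rest on 1 olive oil array each.

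For mmu-miR-31* the scaled level with CCL4 was 1.60 in the earliest week, 1.16 and 1.43 in the pair of 6 weeks and 1.29 and 1.42 in the pair of 8 weeks. On the undetected olive oil arrays the measured values were 0.75, 0.40 and 0.40. For a ratio, each olive oil array was given the higher of the strand's own value and the lowest detected signal of that array. On that basis the star strand was 1.82-fold higher with CCL4 over all weeks. By week it was 1.81-fold, 1.84-fold and 1.94-fold higher at 4, 6 and 8 weeks. At 4 and 8 weeks the value used was the undetected signal itself. The detection call depends on each probe's own error, so these ratios are not lower bounds. The measured means were 1.38 ± 0.17 (SD, n = 5) and 0.51 ± 0.20 (SD, n = 3), with a fitted log2 difference of 0.91 ± 0.145 (SE). Every CCL4 array again lay above every olive oil array, with a gap of 0.41 (log2). The same held for 9.02% of the 133 miRNAs, and a level at least 1.5-fold higher in each week for 5.26% of them; both members are counted in these shares, and since these values chose them, nothing is read from the comparison.

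The size of the difference depended on the scaling more than its direction did. Without scaling, mmu-miR-31 was 3.40-fold, 2.32-fold and 3.18-fold brighter with CCL4 in order of week. The 75th percentile used as the scale was itself higher on the CCL4 arrays, by 0.89, 0.58 and 0.59 (log2). On the olive oil arrays it was 5.11, 4.71 and 6.48 in order of week, below the lowest detected signal of each (7.12, 6.26 and 7.80). On every CCL4 array it lay above the lowest detected signal. Scaled olive oil levels are therefore relative to a signal under detection. With the median of miRNAs that every array detected as scale, the differences were 0.86 and 0.91 (log2), and with their 75th percentile 1.06 and 1.11. For mmu-miR-31* the measured unscaled ratios were 3.37, 2.78 and 2.93. Scaling moved the median difference of the 133 miRNAs from 0.35 to -0.32 (log2). The scaled levels are relative to the 75th percentile, which was higher with CCL4, so scaling made the differences of both strands smaller.

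The 4 probes agreed in direction, and the spots show where the precision lies. The longer probe of mmu-miR-31 was well above background at 50 of 50 spots with CCL4 and 30 of 30 with olive oil, and its spots on one array had a coefficient of variation of 5.38% to 13.3%. The shorter probe was well above background at 49 of 50 CCL4 spots and 4 of 30 olive oil spots. For mmu-miR-31* the longer probe passed at 42 of 50 CCL4 spots and 0 of 30 olive oil spots, whereas the shorter one passed at 4 of 50 and 0 of 30. Spots of that shorter star probe varied by 22.2% to 44.1% with CCL4 and by 83.9% to 125% with olive oil. The star strand's call therefore rested mainly on its longer probe.

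Before scaling, the mean ratio of CCL4 to olive oil was 2.77-fold and 2.88-fold at the longer and the shorter probe of mmu-miR-31. At those of mmu-miR-31* the measured ratios were 2.71 and 3.48, both against olive oil spots of which 0 were well above background, so they are not exact folds. Within an array the longer probe was brighter than the shorter one by 1.17 to 1.26 (log2) for mmu-miR-31 and by 1.08 to 1.27 for mmu-miR-31* on the CCL4 arrays, so the pair of probes kept nearly the same ratio where the strands were detected. On the olive oil arrays these ranges were 1.17 to 1.36 and 1.03 to 1.96. Of the spots of mouse miRNAs, 0 were saturated.

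**Figure D2:**
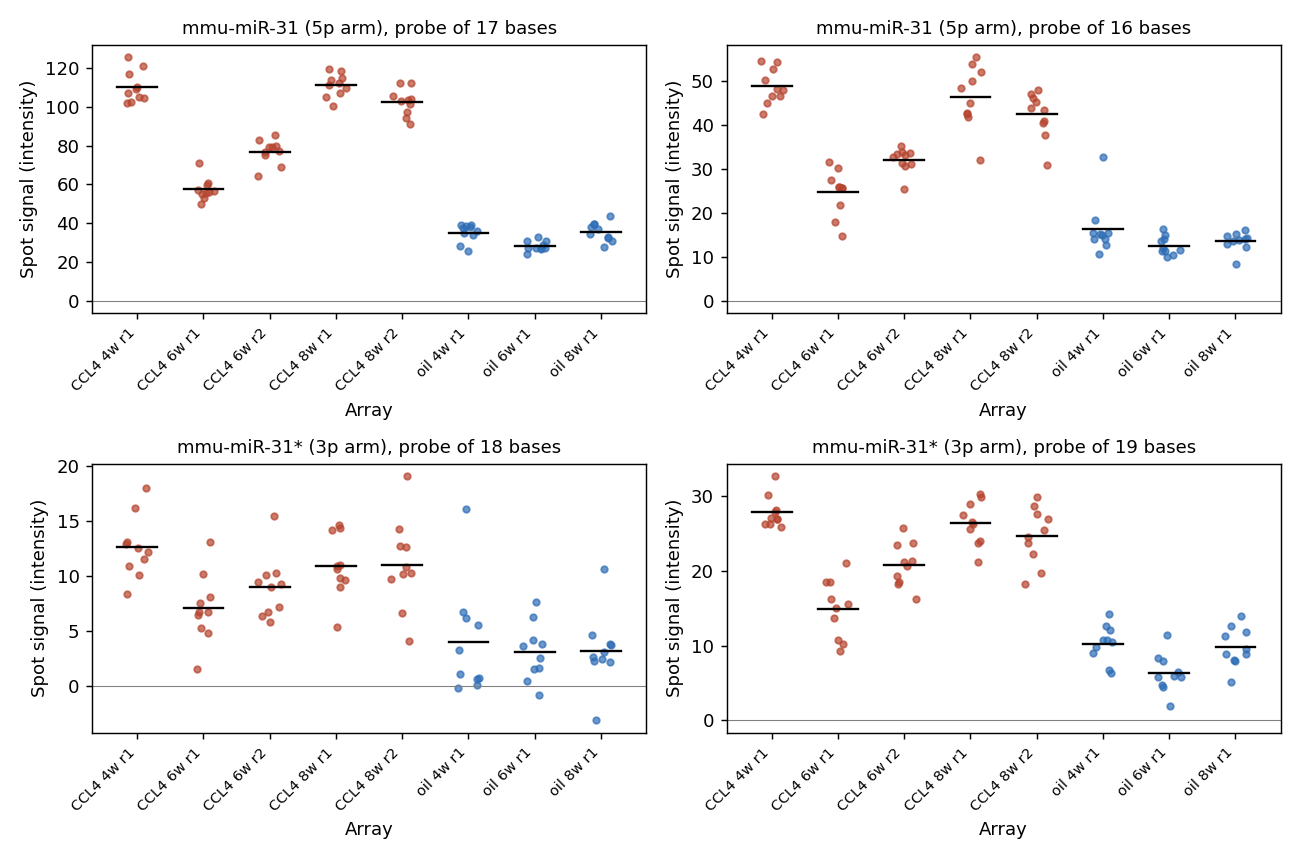
Background-subtracted signal (intensity, linear axis with its own range in each panel) of the 10 spots of each probe on each array, with the mean as a black line; red marks CCL4 and blue olive oil (oil). The longer probe of mmu-miR-31 separates all arrays of the groups spot by spot, and the 18-base probe of mmu-miR-31* scatters around low values that reach below 0 on olive oil arrays.

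Both strands moved together from array to array. The log2 ratio of the star signal to the guide signal with CCL4 was -1.98 in the earliest week, -1.88 and -1.87 in the pair of 6 weeks and -2.07 and -2.06 in the pair of 8 weeks. With olive oil it was -1.97, -2.13 and -1.95. The mean was -1.97 with an SD of 0.0943 over the 5 CCL4 arrays. Over the 3 olive oil arrays it was -2.02 with an SD of 0.103, a difference of 0.04. The strands were selected for moving together, so nothing is read from the size of that difference. The ratio of star to guide is free of the scaling between arrays. It does not give the proportion of the strands in the tissue, since probes of different sequence bind with different strength, and the olive oil values use undetected star signals.

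Across the arrays both unscaled signals ran in the same order, with the CCL4 array of 4 weeks at the top, then the first and the second of 8 weeks, the second and the first of 6 weeks, and the olive oil arrays of 4, 8 and 6 weeks at the bottom. The 3 olive oil places of the star strand come from undetected signals, of which those of 4 and 8 weeks (8.57 and 8.55) differed by far less than their errors, and the strands were selected for moving together, so nothing is read from the shared order. After scaling, the strands shared 3 of 8 positions: their orders differed within both groups while the groups stayed apart. The paired CCL4 arrays differed alike in both strands, by 0.47 and 0.49 (unscaled log2) at 6 weeks and by 0.22 and 0.21 at 8 weeks. The arrays as a whole differed in the same way: the median signal of the 113 miRNAs detected on all arrays was 80.7 and 116 in the CCL4 pair of 6 weeks and 162 and 134 in that of 8 weeks, so these unscaled gaps are not particular to miR-31. At 8 weeks the order of the pair turned after scaling in both strands.

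Of the 163 name pairs of a miRNA and its other strand on the array, 11 had both strands among the 133 tested. The strand ratio of the miR-31 hairpin varied over the CCL4 arrays with an SD of 0.0943, between that of the miR-199b hairpin (0.0778) and that of miR-30a (0.113). The other hairpins ranged from 0.0312 for miR-22 to 0.394 for miR-29c. The measured difference between treatments was 0.05 larger (log2) for the star strand of miR-31 than for the guide, against olive oil values of the star strand that were not detected. Its sign turned with quantile normalization (-0.13), with normexp background correction (-0.36), with the other single probes (-0.08) and without the olive oil array of 6 weeks (-0.07). In the other 10 hairpins the difference of the dimmer strand minus that of the brighter ran from -0.27 for miR-378 to 0.72 for miR-199b. It was -0.005 for miR-30e, -0.03 for miR-30a and -0.05 for miR-140, with both strands detected on all 8 arrays. A small gap between strands was therefore not particular to miR-31. Besides miR-31 the name pair of miR-199b, a miRNA of mesenchymal cells, was the other one with both members higher. mmu-miR-199b rose by 0.74 and mmu-miR-199b* by 1.46 on the log2 scale (limma, adjusted p = 0.0118 and 2.153e-04). The probes of mmu-miR-199b read a sequence shared by miR-199a-3p and miR-199b-3p. The gap between them therefore cannot be read as a difference between strands of one hairpin. Both strands fell in the hairpins of miR-22, miR-30a and miR-29c after scaling, whereas without scaling 0 of the 133 miRNAs were lower. Among the tested miRNAs 13.5% were higher and 35.3% lower at an adjusted p of 0.05 (limma).

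**Figure D3:**
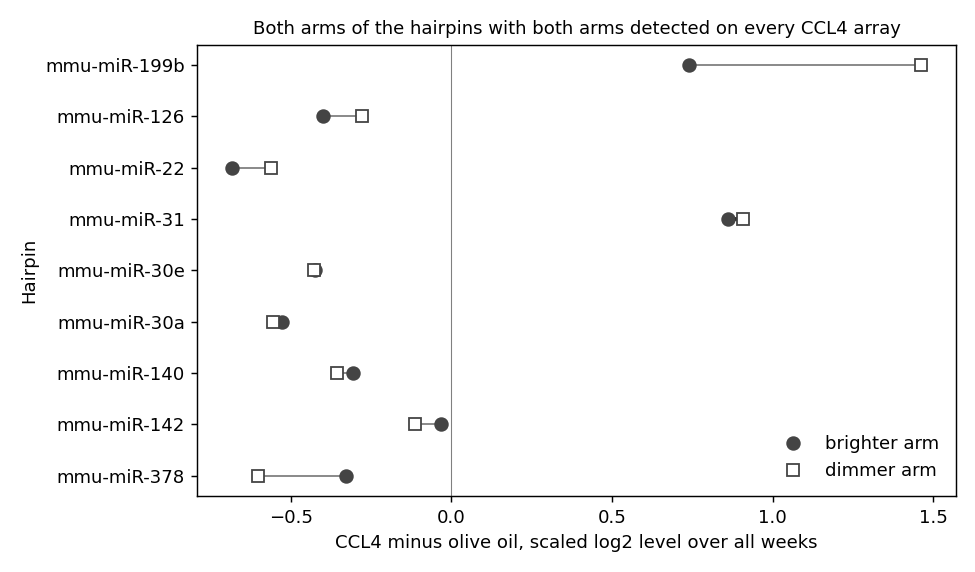
Difference between CCL4 and olive oil in scaled log2 level over all weeks for both strands of the 9 hairpins whose strands were both detected on all CCL4 arrays; filled circles are the brighter strand and open squares the dimmer one. The strands of miR-31 lie 0.05 apart at the right, with the star strand undetected on the olive oil arrays and the sign of that gap turning under other processing. The pair named miR-199b lies 0.72 apart, but the probes of mmu-miR-199b also read miR-199a-3p. The strands of the other 7 hairpins lie below 0, and those of miR-30e, miR-30a and miR-140 lie no farther apart than those of miR-31.

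The miRNAs whose pattern over all 8 arrays was most like that of mmu-miR-31 were found from the SD of their log2 ratio to it within an array, a measure that the scaling leaves unchanged and that is lower for a closer match. Its median over the 112 other miRNAs detected on all arrays was 0.666. The lowest values were 0.170 for mmu-let-7e, 0.171 for mmu-miR-125a-5p, 0.231 for mmu-miR-199a-5p, 0.244 for mmu-miR-199b, and 0.256 for mmu-miR-200b, and that of mmu-miR-31* was 0.0929, with its 3 undetected values included. Over the 5 CCL4 arrays, where the star strand was detected, its SD of 0.0943 ranked 4 among 116, behind mmu-miR-20a (0.0653), mmu-miR-20b (0.0704) and mmu-miR-21 (0.0760). The mature sequences of the 5 closest over all arrays are printed with the seed in capitals to show that none of them has the seed of mmu-miR-31.
mmu-let-7e: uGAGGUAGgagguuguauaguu
mmu-miR-125a-5p: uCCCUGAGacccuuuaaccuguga
mmu-miR-199a-5p: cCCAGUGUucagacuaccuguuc
mmu-miR-199b, probes of both genes: aCAGUAGUcugcacauugguua
mmu-miR-200b: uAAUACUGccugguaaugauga

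All of these were higher with CCL4 after scaling, beside 13.5% of all tested miRNAs called higher. They were picked for following mmu-miR-31 over these same arrays, and mmu-miR-31 was selected on its higher signal with CCL4. Their direction and p-values largely follow from that choice, so nothing is read from them. mmu-miR-125a-5p rose by 0.86 on the log2 scale (limma, adjusted p = 0.00532), and mmu-miR-31 had the same fitted difference. mmu-let-7e rose by 0.63 and mmu-miR-199a-5p by 0.55 (limma, adjusted p = 0.0183 and 0.0209). Probes of mmu-let-7e and mmu-miR-125a-5p lie 435 bp apart on mm9 chromosome 17, in a known miRNA cluster. The probes of mmu-miR-199b read the sequence now shared by miR-199a-3p and miR-199b-3p, so these genes are not separated. Leaving out any one array kept mmu-let-7e, mmu-miR-125a-5p and mmu-miR-199a-5p among the 5 closest. mmu-miR-200b left the 5 closest in 5 of these 8 runs and with quantile normalization, and mmu-miR-199b in 1, that without the CCL4 array of 4 weeks.

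Because the star strand was detected with CCL4 alone, its likeness was taken over the 5 CCL4 arrays, among the 116 other miRNAs detected on all of them. The lowest SDs of the log2 ratio to mmu-miR-31* were 0.0819 for mmu-miR-21 and 0.0871 for mmu-miR-221, and mmu-miR-31 was the third with 0.0943. mmu-miR-652 (0.108), mmu-miR-99b (0.115) and mmu-miR-92a (0.126) followed, against a median of 0.310. mmu-miR-21, mmu-miR-221 and mmu-miR-652 kept pace with the star strand among CCL4 arrays but differed little between treatments, by -0.08, 0.10 and -0.10 on the log2 scale (limma, adjusted p = 0.635, 0.596 and 0.596), and mmu-miR-92a fell by 0.47 (limma, adjusted p = 0.0232). mmu-miR-99b, of the same cluster as mmu-let-7e, was undetected on all 3 olive oil arrays, like the star strand.

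Few miRNAs near the gene on chromosome 4 were detected. The nearest other miRNA with probes, mmu-miR-491, lay 788 kb away and was detected on no array. mmu-miR-872, 5775 kb away, was detected on 1. Of the 27 other mouse miRNAs with probes on the chromosome, 15 were never detected and 8 were tested, of which 2 were higher and 2 lower, beside 13.5% higher and 35.3% lower among all tested miRNAs. The higher ones were mmu-miR-34a, a target of p53, by 1.13, and mmu-miR-200b, by 0.45 (limma, adjusted p = 5.235e-04 and 0.0291). When single arrays were left out, mmu-miR-200b was called higher only without the first CCL4 array of 6 weeks. It was also not called with quantile normalization, normexp, no week term or the replicate block. mmu-miR-101a fell by 0.56 and mmu-miR-455 by 1.1 on the log2 scale (limma, adjusted p = 0.0269 and 0.0155) after scaling, and without scaling neither was called lower.

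Some markers of the liver's cell types, above all mesenchymal and hepatocyte ones, changed as well, and their part in the difference of miR-31 was not tested. The counts below stand beside 13.5% higher and 35.3% lower among all 133 tested miRNAs. The liver miRNA mmu-miR-122 was detected on all arrays with signals of 18497 to 35101. Of 6 mesenchymal miRNAs 5 were tested and 4 were higher with CCL4 (mmu-miR-214, mmu-miR-199b, mmu-miR-199b* and mmu-miR-199a-5p). The list median was 0.74 (log2) against -0.32 over all tested miRNAs, and mmu-miR-145 was never detected. The count of 4 became 2 without the olive oil array of 6 weeks. Their summed scaled level was 4.94 to 5.65 with CCL4 and 4.49 to 4.88 with olive oil. Of the 4 hepatocyte miRNAs, mmu-miR-122, mmu-miR-192 and mmu-miR-194 were lower and mmu-miR-802 higher, with a summed level of 11.19 to 12.01 against 12.36 to 12.52. Quantile normalization called none of the hepatocyte miRNAs, and without scaling the median difference of that list was 0.04 rather than -0.63. The 3 lower ones became 1 when either array of 4 weeks, the first CCL4 array of 6 weeks or the olive oil array of 6 weeks was left out.

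Among 10 epithelial miRNAs 6, mmu-miR-200c and mmu-miR-141 among them, were never detected. Of the 4 tested, mmu-miR-200b and mmu-miR-96 were higher by 0.45 and 0.62 (log2) and mmu-miR-203 was lower by the scaled values, and 0 to 1 of them were called higher when any one array was left out. The summed epithelial level was 3.34 to 3.92 with CCL4, which took in the olive oil range of 3.61 to 3.67. Of 7 leukocyte miRNAs 4 were tested, and mmu-miR-146a was the single one called, lower by the scaled values; without scaling it was not called and mmu-miR-223 was called higher. mmu-miR-150 was never detected, and the summed level was 5.65 to 7.19 against 6.17 to 6.74. Neither endothelial miRNA and 0 of 3 erythroid miRNAs passed as processed here. All 3 erythroid miRNAs were called lower without the first CCL4 array of 8 weeks, and likewise without the olive oil array of 8 weeks; mmu-miR-126-3p was called lower under the replicate block and both endothelial miRNAs with the median as scale. The lists had summed levels of 7.09 to 7.68 against 7.73 to 7.82 and of 8.56 to 9.91 against 9.07 to 10.26. Of 5 miRNAs that, like miR-31, are linked to metastasis, mmu-miR-206 and mmu-miR-10b were never detected. mmu-miR-126-3p and mmu-miR-21 did not pass, and mmu-miR-335-5p, undetected on all olive oil arrays, was called higher with a floor of 0.01 but lower with the floor at the lowest detected signal, and was not called with quantile normalization, normexp or the percentile of miRNAs that every array detected, so neither a direction nor a fold is given for it.

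Under every way of processing that was run, the fitted difference of both strands stayed above 0. It was 0.57 to 1.53 (log2) for mmu-miR-31, and 0.22 to 1.58 for mmu-miR-31*. The low ends came from a background correction that adds an offset of 50 to every spot, more than any star spot read, and the high ends from leaving out the scaling. Leaving out each array in turn gave 0.74 to 0.99 for mmu-miR-31 and 0.87 to 0.95 for mmu-miR-31*. Since the strands were selected on a higher signal in each week, these ranges describe the size of the difference and lend it no support.

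**Figure D4:**
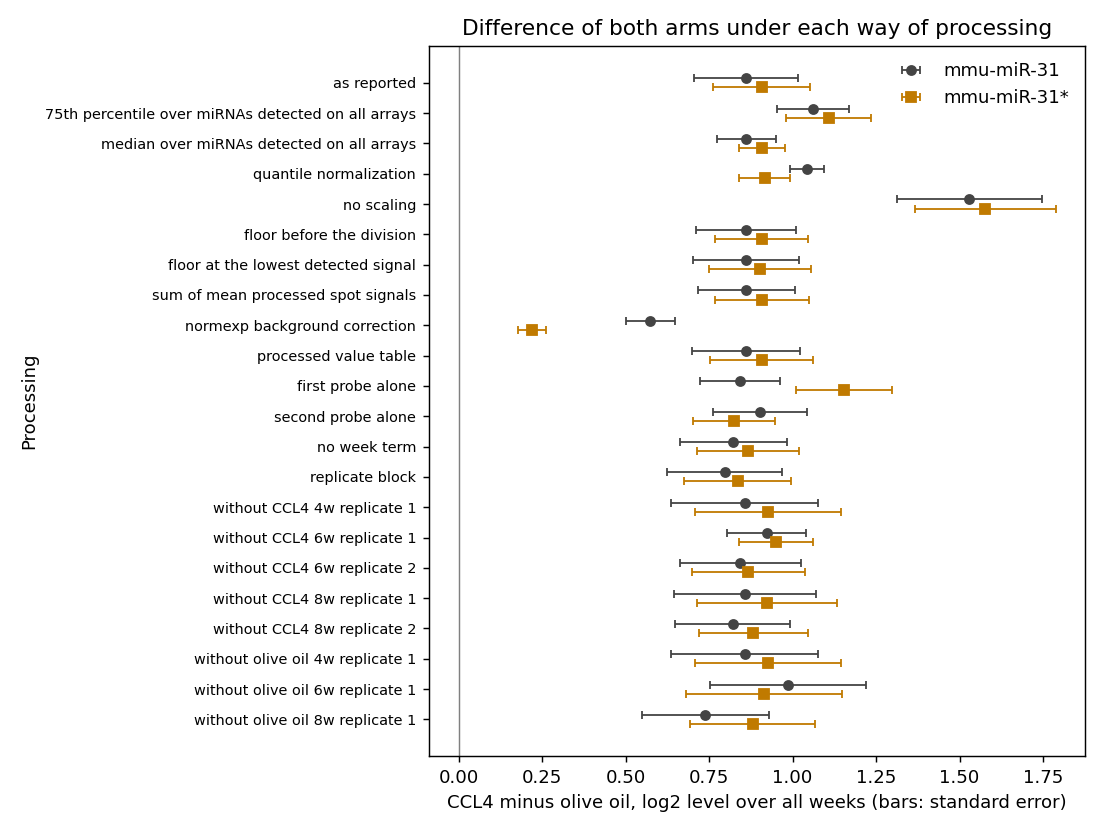
Fitted difference between CCL4 and olive oil on the log2 scale, with its standard error as bars, for mmu-miR-31 (circles) and mmu-miR-31* (squares) under each way of processing and without each array. All points lie right of 0; normexp background correction gives 0.57 and 0.22, and no scaling 1.53 and 1.58.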

How the data were processed

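The deposited files hold an intensity per spot and per miRNA, written by Agilent Feature Extraction 10.5.1.1 after background subtraction and summing over probes, with positions on mm9. A table also deposited gives log2 of these signals, those under 1 being set to 1. Neither was scaled between arrays. Signals of the 567 mouse miRNAs were divided by the array's 75th percentile, given a floor of 0.01 and converted to log2. The methods give the percentile and the floor but set the floor before the division; that order is an alternative. A miRNA was tested when detected on at least 3 of 8 arrays (133; 117 to 158 were detected per array). The comparison used limma 3.58.1 in R 4.3.3 with week as a factor, with Benjamini-Hochberg adjusted p under 0.05. The arrays shared 1 slide and 1 scan, and their number limits the precision. RefSeq sequences were matched by name, and the hairpin was folded with ViennaRNA 2.7.2.

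The members, lists and tests were chosen with earlier results of these data known. The miRNAs named are both strands, the 5 closest to each of them, list members that passed, hairpins with both strands tested and the nearest miRNAs on the chromosome; mmu-miR-34a, mmu-miR-455, mmu-miR-20a and other single examples were named after their values were seen. The fit was tested on simulated data. Alternatives were other scalings, the floor, sums of spots, normexp with an offset of 50, the processed table, single probes, no detection filter, no week term, the methods' t-test, the replicate number as a block, and each array left out.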

Additional observations from a re-analysis of the deposited data

Results flagged for a closer look

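On the CCL4 arrays the first array of 6 weeks stood apart from the other four in 2 of the 5 miRNAs closest to mmu-miR-31. The gap to its nearest neighbour was 0.724 of the whole range for mmu-let-7e and 0.748 for mmu-miR-199b. Chance marks about 1 in 20 groups of this size, and 13 groups were looked at. The same array was the lowest CCL4 array for both strands of miR-31, without passing that limit.

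Among 38 miRNAs looked at, mmu-miR-335-5p was the 1 past the threshold in the test of a treatment difference that varies with the week (limma, interaction of treatment and week, adjusted p = 2.566e-20). It was detected on 4 CCL4 arrays and on 0 olive oil arrays. Its olive oil signals were 1.49, 0.00252 and 1.06, and the second of these was set to the floor of 0.01, so this p rests on undetected values and the choice of floor, and no variation with the week is read from it.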

How the results depend on the processing

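Of 13 alternatives other than leaving out an array, 9 moved the difference of each miR-31 strand by less than the spread between arrays, 4 moved it further and 0 reversed it. For mmu-miR-31 the latter were the percentile of miRNAs that every array detected (1.06 on the log2 scale), quantile normalization (1.04), no scaling (1.53) and normexp (0.57). For mmu-miR-31* they were 1.11 with that percentile, 1.58 without scaling, 0.22 with normexp and 1.15 with the shorter probe alone. The star-to-guide log2 ratio on CCL4 arrays was -3.17 from the longer probe of the guide and the shorter of the star, -0.76 from the other probes, -0.68 with normexp and -2.0 to -1.95 without one array. The difference of the star strand minus that of the guide, 0.05, was -0.13 with quantile normalization, -0.36 with normexp, -0.08 with those other probes and -0.07 without the olive oil array of 6 weeks, and it was 0.31 with the longer guide and shorter star probe and 0.14 without the olive oil array of 8 weeks.

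Of the tested miRNAs 18 were higher and 47 lower. The counts were 34 and 0 without scaling, 11 and 0 with normexp, 11 and 16 without the week term, 5 and 0 without the detection filter, which tests more miRNAs, and 10 and 23 by the methods' t-test after Benjamini-Hochberg. The lower count was 10 with the percentile of miRNAs that every array detected and 18 with quantile normalization. Without one array, 8 to 14 were higher and 5 to 60 lower: 8 and 5 without the olive oil array of 6 weeks, 11 higher without that of 8 weeks, 7 lower without either array of 4 weeks and 30 lower when the first CCL4 array of 6 weeks was dropped. The causes were not tested. At an unadjusted p under 0.05, limma gave 19 and 59.

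With the replicate number as a block, the differences were 0.80 for mmu-miR-31 and 0.84 for mmu-miR-31*, with 12 miRNAs higher and 54 lower. The correlation of the deviations of arrays with one number was 0.0508 across 133 miRNAs over the CCL4 pairs of 6 and 8 weeks, which does not show that the numbers pair arrays.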
